A study of Homo sapiens with 6 samples.

Results

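The 10 genes described here are components and transcriptional targets of the Wnt/β-catenin pathway: *CTNNB1*, *AXIN2*, *LEF1*, *TCF7*, *TCF7L2*, *RNF43*, *ZNRF3*, *NKD1*, *DKK1* and *WNT5A*. They were taken by gene name from the 39739 gene rows of each deposited table, and all 10 were found and tested. Their mRNA was measured by RNA-seq in 6 libraries of HGC27, an established human gastric cancer cell line, of which 3 came from cells overexpressing the *FN1* 3′-UTR (HGC27-FN1 3′-UTR) and 3 from control cells (HGC27-control). The HGC27-FN1 3′-UTR cells carried a lentivirus that stably overexpressed the 3′ untranslated region (3′-UTR) of *FN1*, the fibronectin 1 mRNA, and had been selected with puromycin. The labels call the other cells control and do not say which vector, if any, they carried. Neither the labels nor the study's methods say whether the infected cells were a pool or 1 clone, or whether the 3 libraries of a group came from separate cultures, so the p-values measure the spread between these libraries, which may be technical.

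Wnt proteins are secreted ligands that bind Frizzled receptors and LRP co-receptors. Without a Wnt signal, a cytoplasmic destruction complex built on the scaffold Axin marks β-catenin for degradation. With a signal β-catenin accumulates, enters the nucleus and binds TCF/LEF factors at target genes. Several of these targets encode inhibitors of the pathway itself, among them *AXIN2*, *NKD1*, *RNF43*, *ZNRF3* and *DKK1*, and the pathway is known for its role in stem cells of the gastrointestinal epithelium and in gastrointestinal cancers.

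*DKK1*, *AXIN2* and *WNT5A* were upregulated in HGC27-FN1 3′-UTR cells, with mean levels 5.36, 1.53 and 1.51 times those of HGC27-control cells. The other 7 genes did not pass the test. *CTNNB1*, which encodes β-catenin, had a ratio of 1.05. Of these 7, *RNF43* and *TCF7L2* had values above those of every control library, and *LEF1* and *NKD1* had values below them. Of all genes tested, 14.3% lay wholly above and 21.7% wholly below the control libraries. Group differences were tested two-sided with limma on log2(RPKM + 0.1), fitted to the 23299 genes that had at least 0.1 RPKM in 3 or more libraries, and a gene was called at a Benjamini-Hochberg adjusted p under 0.05. RPKM is the number of reads per kilobase of merged exons per 1000000 reads assigned to genes. Log2 fold changes are on the log2(RPKM + 0.1) scale, HGC27-FN1 3′-UTR minus HGC27-control, and come out smaller than the ratio of means where RPKM is low. Of all tested genes, 5.62% were called higher and 7.36% lower (1310 and 1715 genes), against 3 and 0 of the 10. With median-ratio scaling between libraries the split over all genes turned to 1696 higher and 1330 lower, and the same counts of 3 and 0 were obtained for the 10 genes. At an unadjusted p under 0.05, 5 of the 10 were higher and 2 were lower, and the share of all genes at that threshold is not given here. By limma's voom on the recovered reads 5 were called higher and 2 lower. Voom called more genes throughout, 21.9% of all tested genes (2042 higher and 3066 lower). The median log2 fold change of the 10 genes was 0.15, beside -0.04 over all tested genes. In these bulk libraries more cells that express a gene and more of its RNA per cell cannot be told apart.

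The libraries held 16357085 to 29202046 reads in HGC27-FN1 3′-UTR cells and 22332816 to 37037532 in HGC27-control cells. *FN1* itself, whose row covers all merged exons and not the 3′-UTR alone, was at 0.777, 0.745 and 0.819 RPKM in HGC27-FN1 3′-UTR cells and at 0.543, 0.474 and 0.532 RPKM in HGC27-control cells. The groups did not overlap, with a log2 fold change of 0.52 (SE 0.11, limma adjusted p = 0.0292). That call was lost when any 1 of the 6 libraries was left out, with adjusted p from 0.0614 to 0.0982.

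**Figure D1:**
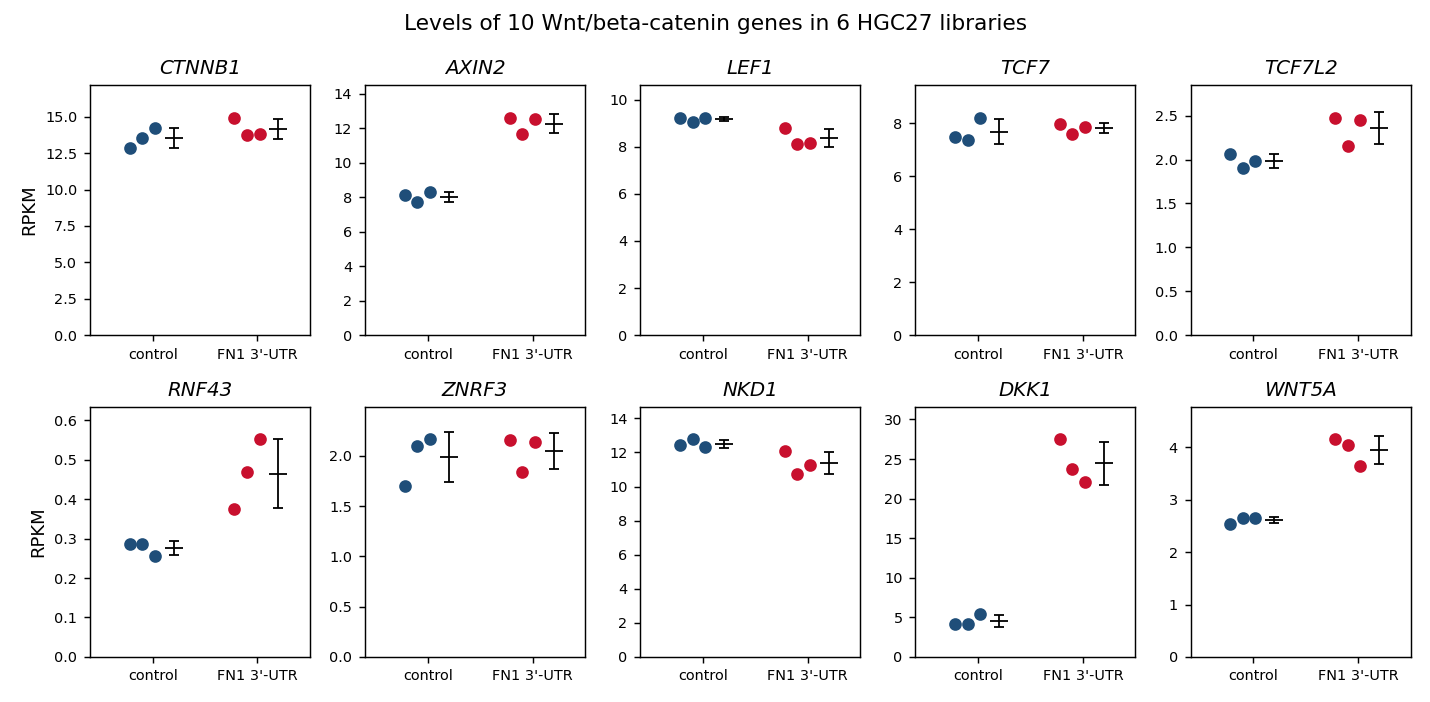
RPKM of each of the 10 genes in the 3 HGC27-control and the 3 HGC27-FN1 3′-UTR libraries, 1 panel per gene with its own axis; points are libraries and bars are the mean and SD. The *DKK1* points of HGC27-FN1 3′-UTR cells lie between 22.1 and 27.5 RPKM and those of control cells between 4.10 and 5.45, while the *CTNNB1*, *TCF7* and *ZNRF3* points of the 2 groups overlap.

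*WNT5A* is a secreted ligand best known for signaling that does not pass through β-catenin. Its gene spans chromosome 3, 55465715 to 55490539, reverse strand (GRCh38, as are all coordinates of genes here). Its level was 4.16, 4.05 and 3.65 RPKM in HGC27-FN1 3′-UTR replicates 1 to 3 and 2.54, 2.65 and 2.65 RPKM in HGC27-control replicates 1 to 3. Every HGC27-FN1 3′-UTR library was above every control library, and the control values were close together. The means were 3.95 ± 0.266 and 2.61 ± 0.063 RPKM (SD, n = 3 each), and the log2 fold change was 0.58 (SE 0.064, 95% confidence interval 0.42 to 0.73, limma adjusted p = 0.00459), with 427 to 803 reads per library.

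*RNF43* and *ZNRF3* are related transmembrane ubiquitin ligases that remove Frizzled receptors from the cell surface, and R-spondins counteract them through LGR receptors. *RNF43* (chromosome 17, 58352500 to 58417595, reverse strand) had the lowest level of the 10 genes. It was at 0.375, 0.469 and 0.552 RPKM in HGC27-FN1 3′-UTR cells (46, 86 and 121 reads) and at 0.286, 0.285 and 0.255 RPKM in control cells (48, 66 and 71 reads). The groups did not overlap, and the gap was narrowest for HGC27-FN1 3′-UTR replicate 1, the shallowest library. The log2 fold change of 0.58 (SE 0.17, 95% confidence interval 0.18 to 0.98) missed the threshold with an adjusted p of 0.0717 from limma, and limma's voom on the recovered reads gave 0.80 with an adjusted p of 8.58e-04. *ZNRF3*, on chromosome 22 from 28883592 to 29057487, was at 2.16, 1.85 and 2.14 RPKM in HGC27-FN1 3′-UTR cells and at 1.70, 2.10 and 2.17 RPKM in control cells. Its groups overlapped, and the 95% confidence interval of its log2 fold change ran from -0.23 to 0.32.

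*DKK1* encodes a secreted antagonist that binds the LRP5 and LRP6 co-receptors. It lies on chromosome 10 from 52314296 to 52318042 and is the shortest of the 10 genes, with 2206 bases of merged exons. Its level was 27.5, 23.8 and 22.1 RPKM in HGC27-FN1 3′-UTR cells, from 992, 1281 and 1425 reads, and 4.10, 4.15 and 5.45 RPKM in control cells, from 202, 282 and 445 reads. The lowest HGC27-FN1 3′-UTR value was well above the highest control value. The means were 24.5 ± 2.75 and 4.57 ± 0.764 RPKM (SD, n = 3 each), with a log2 fold change of 2.40 (SE 0.13, 95% confidence interval 2.09 to 2.72, limma adjusted p = 5.09e-04). This fold change was at percentile 99.9 of those of all tested genes. *DKK1* was the only 1 of the 10 past an absolute log2 fold change of 1 with an unadjusted p under 0.05, criteria that 2.47% of all tested genes met, 1.65% in the higher direction and 0.815% in the lower.

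*AXIN2* encodes a scaffold of the destruction complex and is among the most widely used readouts of β-catenin-dependent transcription. The gene spans chromosome 17, 65528563 to 65561647, reverse strand. Its level was 12.6, 11.7 and 12.6 RPKM in HGC27-FN1 3′-UTR cells and 8.11, 7.70 and 8.28 RPKM in control cells, with 947 to 1915 reads per library. The groups were apart, and the spread within each was small beside the gap. The means were 12.3 ± 0.541 and 8.03 ± 0.298 RPKM (SD, n = 3 each), with a log2 fold change of 0.61 (SE 0.048, 95% confidence interval 0.49 to 0.72, limma adjusted p = 0.00168). The gene shares 1316 of its exon bases, 25.2% of its length, with *CTD-2535L24.2*, a gene on the same strand that was singled out after its values were seen. *CTD-2535L24.2* rose from 9.09 ± 0.496 to 14.0 ± 0.139 RPKM (SD, n = 3 each), with a log2 fold change of 0.62 (limma adjusted p = 0.00136), and how the counting assigned reads in the shared bases is not given in the sources used here.

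*NKD1* encodes a cytoplasmic protein that binds Dishevelled and dampens the Wnt signal. It lies on chromosome 16 from 50548330 to 50649249 and has the longest merged exons of the 10 genes, 17425 bases. Its level was 12.1, 10.8 and 11.3 RPKM in HGC27-FN1 3′-UTR cells and 12.4, 12.8 and 12.3 RPKM in control cells, with 3436 to 7954 reads per library. All 3 HGC27-FN1 3′-UTR values were below the control values, by a small margin for replicate 1. The log2 fold change was -0.14 (SE 0.048, 95% confidence interval -0.26 to -0.02, limma adjusted p = 0.113), and voom gave -0.14 with an adjusted p of 0.00986.

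*CTNNB1*, on chromosome 3 from 41194837 to 41260096, encodes β-catenin, which is regulated mainly through the stability of the protein. RNA-seq does not measure the protein. In its own assays the study reports reduced β-catenin expression in cells overexpressing the *FN1* 3′-UTR. The mRNA was at 15.0, 13.7 and 13.8 RPKM in HGC27-FN1 3′-UTR cells and at 12.9, 13.6 and 14.3 RPKM in control cells, with 1617 to 3491 reads per library. The groups overlapped. The 95% confidence interval of the log2 fold change ran from -0.06 to 0.19 around 0.06 (limma adjusted p = 0.492).

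*LEF1*, *TCF7* and *TCF7L2* encode DNA-binding partners of β-catenin. *LEF1* (chromosome 4, 108047545 to 108168956, reverse strand) was at 8.80, 8.12 and 8.17 RPKM in HGC27-FN1 3′-UTR cells and at 9.25, 9.07 and 9.22 RPKM in control cells. *TCF7*, on chromosome 5 from 134114711 to 134151865, was at 7.99, 7.60 and 7.88 RPKM in HGC27-FN1 3′-UTR cells and at 7.47, 7.35 and 8.22 RPKM in control cells. *TCF7L2*, on chromosome 10 from 112950250 to 113167678, was at 2.48, 2.15 and 2.46 RPKM in HGC27-FN1 3′-UTR cells and at 2.07, 1.90 and 1.98 RPKM in control cells. The *LEF1* values of HGC27-FN1 3′-UTR cells were thus all below the control values, the *TCF7L2* values were all above them, and the *TCF7* values overlapped. None of the 3 was called. The log2 fold change was -0.13 for *LEF1* (SE 0.043, limma adjusted p = 0.0941), 0.24 for *TCF7L2* (SE 0.077, adjusted p = 0.0951) and 0.03 for *TCF7* (SE 0.053, adjusted p = 0.779). With voom on the recovered reads *LEF1* and *TCF7L2* were called, at adjusted p of 0.0387 and 0.0172.

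For 7 of the 10 genes the groups did not overlap, 5 higher and 2 lower in HGC27-FN1 3′-UTR cells, beside 36.0% of all tested genes (14.3% higher and 21.7% lower). *DKK1*, *AXIN2* and *WNT5A* kept their calls in each of the 6 fits that left out 1 library, with adjusted p no higher than 0.00515, 0.0122 and 0.0273. The other 7 genes were called in none of those fits.

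**Figure D2:**
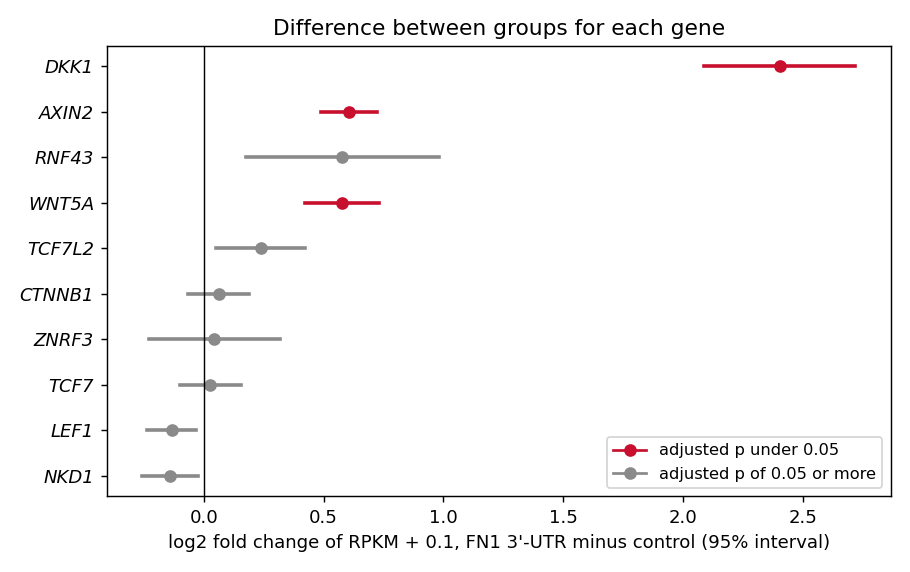
Log2 fold change of RPKM + 0.1 of each of the 10 genes, HGC27-FN1 3′-UTR minus HGC27-control, with 95% confidence intervals from limma. *DKK1* at 2.40 stands apart from the other 9 genes, which lie between -0.14 and 0.61.

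The order of the 10 levels differed between the groups. In HGC27-control cells *CTNNB1* had the highest mean level per length (13.6 RPKM), then *NKD1* (12.5), *LEF1* (9.18), *AXIN2* (8.03), *TCF7* (7.68), *DKK1* (4.57), *WNT5A* (2.61), *ZNRF3* (1.99), *TCF7L2* (1.98) and *RNF43* (0.276). In this order the ranges of *AXIN2* and *TCF7*, and of *ZNRF3* and *TCF7L2*, overlapped between neighbours. In HGC27-FN1 3′-UTR cells *DKK1* was first at 24.5 RPKM, above *CTNNB1* at 14.2 and followed by *AXIN2* at 12.3. There the ranges of *AXIN2* and *NKD1*, and of *TCF7L2* and *ZNRF3*, overlapped. *RNF43* was lowest in both groups.

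Within a library the scaling between libraries cancels out of the ratio of 2 genes, and 5 such ratios of RPKM were compared. *AXIN2* to *NKD1*, both target genes that restrain the pathway, stood at 1.08 ± 0.033 in HGC27-FN1 3′-UTR cells and 0.642 ± 0.036 in control cells (SD, n = 3 each). The ratio of *AXIN2* to *LEF1* was 1.47 ± 0.059 against 0.875 ± 0.024, and that of *AXIN2* to its paralog *AXIN1* was 1.20 ± 0.060 against 0.617 ± 0.024. *DKK1* to *NKD1* was 2.15 ± 0.167 against 0.366 ± 0.066, and *RNF43* to *ZNRF3* was 0.229 ± 0.048 against 0.141 ± 0.025. In all 5 the groups did not overlap, and each gave p = 0.1 in a two-sided exact permutation test (0.1 after adjustment over the 5), which is the smallest p that 3 libraries against 3 can give. *AXIN2* and *DKK1* were already called higher, and *NKD1*, *LEF1* and *AXIN1* were lower in every HGC27-FN1 3′-UTR library. The separation of their ratios thus follows from the single genes and adds no support. Ratios of other pairs of genes were not compared.

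Families were also compared by the share of each gene in the summed RPKM of its family, without a test. Of the 4 TCF/LEF genes, *LEF1* made up 43.2 ± 1.0% in HGC27-FN1 3′-UTR cells and 46.2 ± 0.769% in control cells (SD, n = 3 each). *TCF7* made up 40.5% and 38.7%, *TCF7L2* 12.2% and 9.99%, and *TCF7L1* 4.11% and 5.13%. The summed RPKM of the 4 was 18.7 to 19.9 in HGC27-FN1 3′-UTR cells and 19.4 to 20.3 in control cells, so the ranges of the sums overlapped. *TCF7L1*, often described as a repressor among these factors, was at 0.793 ± 0.111 RPKM in HGC27-FN1 3′-UTR cells and 1.02 ± 0.096 in control cells (SD, n = 3 each) and was not called (limma adjusted p = 0.156).

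*WNT5A* made up 22.3 ± 1.31% of the summed RPKM of 18 Wnt ligand genes in HGC27-FN1 3′-UTR cells and 15.5 ± 0.131% in control cells (SD, n = 3 each). *WNT11* had the largest share in both groups, 33.2% and 33.4%, and *WNT10B* was at 20.5% and 22.6%. Both were named after their values were seen. As shares of reads the order turned, with *WNT5A* first in both groups and *WNT11* at 20.4% and 21.6%. *AXIN2* made up 54.6 ± 1.26% of the summed RPKM of *AXIN1* and *AXIN2* in HGC27-FN1 3′-UTR cells and 38.1 ± 0.913% in control cells (SD, n = 3 each). By length, *AXIN1* thus had the larger share in control cells and *AXIN2* in HGC27-FN1 3′-UTR cells. As shares of reads, not divided by length, *AXIN1* was the larger in both groups, and *AXIN2* made up 45.6% and 30.1%. *DKK1* made up more than 94% of the summed RPKM of the 4 DKK genes in every library, and *NKD1* made up 51.4% and 54.5% of that of *NKD1* and *NKD2*.

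**Figure D3:**
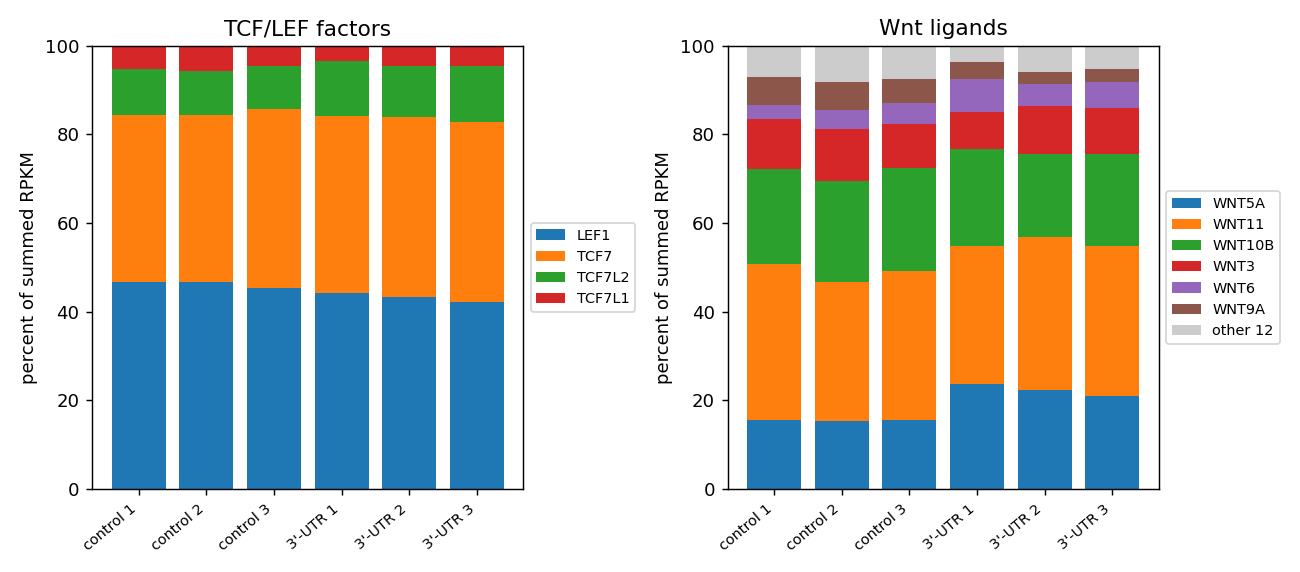
Share of each gene, in percent, of the summed RPKM of its family in each of the 6 libraries, as stacked bars, for the 4 TCF/LEF genes (left) and the 18 Wnt ligand genes (right, 12 of them in grey). *LEF1* holds 42.17% to 44.16% in HGC27-FN1 3′-UTR libraries and 45.34% to 46.69% in control libraries, and *WNT5A* holds 20.93% to 23.55% and 15.35% to 15.61%.

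The 10 genes were next set beside 9 lists of Wnt genes by role, 114 genes in all, of which 111 were in the tables and 95 were tested. Over these lists 15 genes were called higher and 7 lower in HGC27-FN1 3′-UTR cells, 23.2% of those tested, beside 13.0% of all genes tested. Of these *LGR5* and *FRZB* passed the filter on low RPKM only through the HGC27-FN1 3′-UTR libraries, so they could only come out higher. Without genes that passed through 1 group alone, 13 were called higher and 7 lower of 93 (21.5%), beside 12.5% of 22983 genes. Leaving out the 10 genes as well gave 10 higher and 7 lower of 83, or 20.5%. Among the genes called outside the 10, *DKK2*, *SOST*, *APCDD1*, *AXIN1*, *TLE4* and *CBY1* were also called in each fit that left out 1 library. *DKK2* is kept in all these counts, though its control libraries alone would not have met the filter. The median log2 fold change over the 95 genes was -0.06, beside -0.04 over all genes. Without HGC27-FN1 3′-UTR replicate 1, 2 or 3, or control replicate 2, the counts over the 9 lists were 7 and 3, 8 and 2, 9 and 4, and 8 and 2.

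Of 11 antagonists outside the cell that did not pass the filter through 1 group alone, 4 were called higher and 0 lower. This was 36.4%, beside 12.5% over all genes that did not pass it through 1 group alone. With *FRZB* counted, which could only come out higher, 7 of the 12 tested were higher and 3 lower at an unadjusted p under 0.05. The share of all genes at that threshold is not given here, so these counts add no support. By voom 6 of the 12, *FRZB* among them, were called higher and 3 lower, where voom called 21.9% of all tested genes. Beside *DKK1*, *SOST*, an antagonist of LRP5 and LRP6, rose from 0.432 ± 0.082 to 1.93 ± 0.314 RPKM (SD, n = 3 each), with a log2 fold change of 1.93 (limma adjusted p = 0.00194). *DKK2*, a paralog of *DKK1*, rose from 0.158 ± 0.054 to 0.860 ± 0.019 RPKM (SD, n = 3 each), with a log2 fold change of 1.92 (limma adjusted p = 0.00336), with 62 reads in the control libraries together and 260 in the HGC27-FN1 3′-UTR libraries. Its control libraries were at 0.176, 0.098 and 0.200 RPKM and alone would not have met the filter. *DKK2* thus needed the group where it is high to be tested, and the share of 36.4% counts it. *APCDD1*, a membrane-bound inhibitor that is itself a β-catenin target, rose from 3.73 ± 0.294 to 5.99 ± 0.309 RPKM (SD, n = 3 each, limma adjusted p = 0.00412). *FRZB*, a secreted Frizzled-related protein named after its values were seen, had 21 reads in the control libraries together and 53 in those of HGC27-FN1 3′-UTR cells. It is left out of the 11 because control cells were below 0.1 RPKM in every library. *DKK3* was below the minimum level and was not tested, with 38 reads in control libraries and 29 in the others.

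In the destruction complex *AXIN1* moved opposite to *AXIN2*. It was at 10.2, 10.3 and 10.2 RPKM in HGC27-FN1 3′-UTR cells and at 12.6, 12.9 and 13.6 RPKM in control cells, a log2 fold change of -0.35 (SE 0.039, limma adjusted p = 0.00497). Of the 19 genes of this list 1 was called higher, *AXIN2*, and 2 lower. This was 15.8%, beside 12.5% over all genes that did not pass the filter through 1 group alone. The other lower gene was *BTRC*, the substrate receptor of the ubiquitin ligase that recognizes β-catenin, at 7.10 ± 0.285 RPKM in control cells and 6.03 ± 0.047 in HGC27-FN1 3′-UTR cells (SD, n = 3 each, limma adjusted p = 0.0203). Its call was lost without any 1 HGC27-FN1 3′-UTR library or control replicate 2, with adjusted p up to 0.0793. *NKD2*, the paralog of *NKD1*, was at 10.5 ± 0.631 RPKM in control cells and 10.7 ± 0.239 RPKM in HGC27-FN1 3′-UTR cells (SD, n = 3 each) and was not called (limma adjusted p = 0.701).

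Among 16 nuclear partners, which include *CTNNB1* and the TCF/LEF genes, 1 was called higher and 3 lower. This was 25.0%, beside 12.5% over all genes that did not pass the filter through 1 group alone. *TLE4*, a Groucho-type corepressor of TCF/LEF factors, rose from 2.54 ± 0.021 to 3.77 ± 0.218 RPKM (SD, n = 3 each), with a log2 fold change of 0.55 (limma adjusted p = 0.00404). *CBY1*, which encodes the β-catenin antagonist Chibby, fell from 12.9 ± 0.543 to 9.09 ± 0.490 RPKM (SD, n = 3 each), with a log2 fold change of -0.50 (limma adjusted p = 0.00422). *TLE2* and *CHD8*, a corepressor and a chromatin remodeler that binds β-catenin, had log2 fold changes of -0.36 and -0.18 (limma adjusted p = 0.0335 and 0.0158). *TLE2* kept its call only without control replicate 3, and *CHD8* lost it without HGC27-FN1 3′-UTR replicate 1 or 2 or control replicate 2, with adjusted p up to 0.0974 and 0.0728.

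Of 18 known β-catenin target genes 16 were tested. Without *LGR5*, which passed the filter only through the HGC27-FN1 3′-UTR libraries, 5 of 15 were called higher and 0 lower, a share of 33.3% beside 12.5% over all genes that did not pass it through 1 group alone. With *LGR5* counted, which could only come out higher, 7 of the 16 were higher and 3 were lower at an unadjusted p under 0.05. These counts add no support, since the share of all genes at that threshold is not given here. Beside *DKK1* and *AXIN2*, the genes called higher were *APCDD1*, *TNFRSF19* and *EPHB2*. *TNFRSF19*, a receptor of the tumor necrosis factor family, was at 0.622 ± 0.040 and 0.998 ± 0.138 RPKM (SD, n = 3 each) in control and HGC27-FN1 3′-UTR cells, and *EPHB2*, an ephrin receptor, at 1.16 ± 0.052 and 1.51 ± 0.077 RPKM. Their adjusted p from limma were 0.0297 and 0.0353. *EPHB2* lost its call without any 1 library and *TNFRSF19* in all such fits but the one without HGC27-FN1 3′-UTR replicate 2, with adjusted p up to 0.118 and 0.0953. Among targets that were not called and were named after their values were seen, *CCND1*, encoding cyclin D1, was at 34.5 ± 0.491 RPKM in control cells and 34.3 ± 0.135 RPKM in HGC27-FN1 3′-UTR cells (SD, n = 3 each, limma adjusted p = 0.898). *NOTUM*, which encodes an enzyme that inactivates Wnt proteins, was at 4.65 ± 0.223 RPKM in control cells and 3.99 ± 0.335 RPKM in the other group (limma adjusted p = 0.106).

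*LGR4*, a receptor for R-spondins, was the 1 gene called among the 6 of the R-spondin axis that remain without *LGR5* (16.7%, beside 12.5% over all such genes). It rose from 4.14 ± 0.475 to 5.29 ± 0.061 RPKM (SD, n = 3 each, limma adjusted p = 0.0456) and kept its call only without control replicate 1, with adjusted p up to 0.121 in the other such fits. *LGR5*, another R-spondin receptor, a stem cell marker of the intestine and a target of β-catenin, was named after its values were seen, since its level was under 0.2 RPKM in every library. It had 3 reads in the control libraries together and 50 in the HGC27-FN1 3′-UTR libraries, a ratio per 1000000 reads of 21.5 with a 95% counting interval of 6.94 to 108. This interval covers counting error only. Its test is not given, since the control libraries were at 0 to 0.010 RPKM and the gene was tested only because the other group exceeded 0.1 RPKM.

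Of 10 tested Wnt ligands *WNT5A* was the 1 called higher and *WNT9A* the 1 called lower. The share called over all genes that did not pass the filter through 1 group alone was 12.5%. Whether the ligands differ from that share was not tested. *WNT9A* fell from 1.02 ± 0.084 to 0.560 ± 0.102 RPKM (SD, n = 3 each), with a log2 fold change of -0.77 (limma adjusted p = 0.02), and kept its call only without HGC27-FN1 3′-UTR replicate 1, with adjusted p up to 0.0791. *WNT5B*, the paralog of *WNT5A*, was at 0.267 RPKM in control cells and 0.211 RPKM in HGC27-FN1 3′-UTR cells and was not called (limma adjusted p = 0.476). *WLS*, the carrier that takes Wnt proteins to the cell surface, was at 15.0 ± 0.536 RPKM in control cells and 17.3 ± 0.280 RPKM in HGC27-FN1 3′-UTR cells (limma adjusted p = 0.0177), a call lost without any 1 HGC27-FN1 3′-UTR library (adjusted p up to 0.0604).

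*FZD1* was the 1 gene called among 14 tested receptors and co-receptors, at 3.48 ± 0.238 RPKM in control cells and 4.42 ± 0.103 RPKM in HGC27-FN1 3′-UTR cells (SD, n = 3 each, limma adjusted p = 0.0189). In the planar polarity list of 14 tested genes, where *WNT5A* is a known ligand, *PRICKLE1* was called higher and *VANGL2* lower, with log2 fold changes of 0.38 and -0.62 (limma adjusted p = 0.0163 and 0.0272). The shares called were 7.14% of the receptors and 14.3% of the planar polarity list. Over all genes that did not pass the filter through 1 group alone, the share was 12.5%. *FZD1* and *PRICKLE1* lost their calls without HGC27-FN1 3′-UTR replicate 1 or 2 or control replicate 2, and *VANGL2* also without control replicate 3, with adjusted p up to 0.075, 0.060 and 0.0962.

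**Figure D4:**
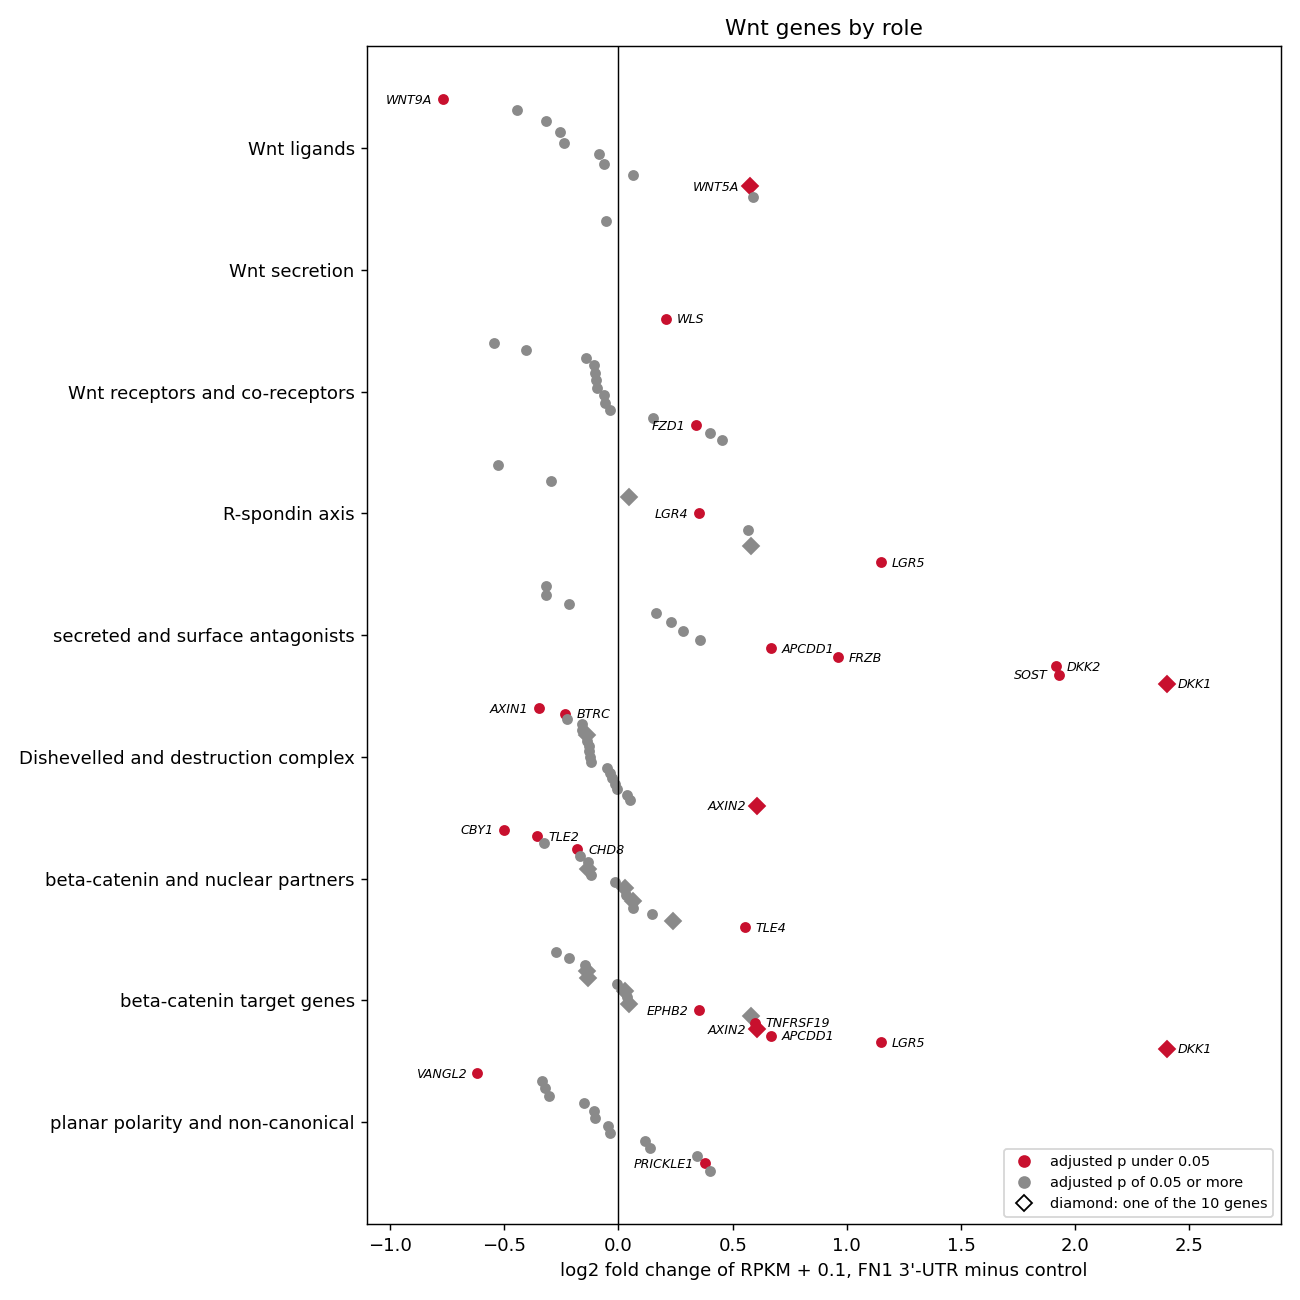
Log2 fold change of RPKM + 0.1 of each tested gene of the 9 Wnt lists, HGC27-FN1 3′-UTR minus HGC27-control, with genes called at an adjusted p under 0.05 from limma in red and named, and the 10 genes as diamonds. *LGR5* and *FRZB* passed the filter only through the HGC27-FN1 3′-UTR libraries, so their red points are no test. The control libraries of *DKK2* alone would not have met the filter either. *DKK1*, *SOST* and *DKK2* lie near 2 among the antagonists, and *AXIN1* and *AXIN2* lie on opposite sides of 0.

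Because the study examined miRNAs bound to the *FN1* 3′-UTR, the 3′-UTRs of the 10 genes were searched for matches to the seeds (bases 2 to 8) of the 4 miRNAs it followed up. The mature sequences are shown for their seeds, from RefSeq (GRCh38.p14), with the seed in capitals, and no 2 of the 4 share a seed:
let-7i-5p: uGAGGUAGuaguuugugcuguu
miR-296-3p: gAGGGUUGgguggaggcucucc
miR-423-5p: uGAGGGGCagagagcgagacuuu
miR-629-5p: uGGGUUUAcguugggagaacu

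The reverse complement of each seed was looked for on the sense strand of the longest annotated 3′-UTR of each gene in GENCODE release 29. It was CTACCTC for let-7i-5p, present in 9.58% of 19098 3′-UTRs, CAACCCT for miR-296-3p, present in 8.74%, GCCCCTC for miR-423-5p, present in 14.7%, and TAAACCC for miR-629-5p, present in 7.1%. None of the 4 was present in the 3′-UTR of *DKK1* (850 bases), *AXIN2* (1413 bases) or *WNT5A* (4377 bases), nor in those of *CTNNB1*, *LEF1* and *ZNRF3*. At least 1 was present in 4 of the 10 genes, *TCF7*, *TCF7L2*, *RNF43* and *NKD1*, and in 31.3% of all 3′-UTRs. The let-7i-5p match was in *NKD1* alone among the 10, whose 3′-UTR is 15468 bases long beside a median of 1085 over all genes. Matches in genes outside *NKD1*, and the let-7i-5p match in *NKD1*, are shown with the matching letters in capitals:
*NKD1*, let-7i-5p, chr16:50634197-50634225, forward strand: ataaacagctgCTACCTCttagtattatt
*RNF43*, miR-423-5p, chr17:58354452-58354480, reverse strand: caccagctttgGCCCCTCcacagtaaggc
*RNF43*, miR-423-5p, chr17:58353861-58353889, reverse strand: gaccactcttgGCCCCTCaggcattatcc
*RNF43*, miR-296-3p, chr17:58354420-58354448, reverse strand: tacatcaggggCAACCCTggctctatcat
*TCF7L2*, miR-629-5p, chr10:113167232-113167260, forward strand: atgaagaggtaTAAACCCttaagggccaa
*TCF7*, miR-296-3p, chr5:134147607-134147635, forward strand: gagccaagcttCAACCCTcagccttgaaa

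These matches describe the letters of the reference sequence and were not measured as binding sites. The TCF/LEF motif CTTTGAT was looked for on both strands (ATCAAAG on the other) from 250 bases before to 50 bases after the start of each gene in RefSeq. It was present in none of the 12 windows of the 7 genes with an entry, and in 2.62% of 35116 windows of that length. At that share 12 windows would seldom hold the motif, so its absence does not show that these genes lack TCF/LEF sites. *AXIN2*, *NKD1* and *ZNRF3* had no entry.

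Other rows overlap several of the 10 genes on the opposite strand. *RNF43* shares 1521 exon bases (20.3% of its length) with *TSPOAP1-AS1*, which had a log2 fold change of 0.21 (limma adjusted p = 0.120), and *LEF1* shares 279 bases (5.2%) with *LEF1-AS1*, which had one of -0.13 (limma adjusted p = 0.244). *TSPOAP1-AS1* had 982 reads in HGC27-FN1 3′-UTR libraries and 1110 in control libraries, beside 253 and 185 for *RNF43*. On its own strand *RNF43* shares 143 bases (1.91%) with *SUPT4H1*, which had 1438 and 1714 reads. The part of these overlaps in the *RNF43* value was not tested. The library kit kept strand, but whether the counting used it is not given in the sources used here.

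Markers of cell types also differed between the groups. Of 17 gastric epithelial markers with a row, 12 were tested. *KRT7* and *KRT19*, named for this reason, passed the filter only through the HGC27-FN1 3′-UTR libraries. Of the other 10, 8 were called higher in HGC27-FN1 3′-UTR cells and 0 lower. This was 80.0%, beside 12.5% over all genes that did not pass the filter through 1 group alone. The 8 include *CTSE* and *PLA2G2A*, whose control libraries alone would not have met the filter. Those were at 0.050, 0.134 and 0.040 RPKM for *CTSE* and at 0.080, 0.096 and 0.192 RPKM for *PLA2G2A*. Both thus needed the group where they are high to be tested. The 17 markers summed to 30.6 to 41.7 RPKM against 5.34 to 5.67 in control cells. *KRT8*, the most abundant with *KRT18*, was at 12.2 ± 2.04 RPKM in HGC27-FN1 3′-UTR cells and 2.15 ± 0.135 in control cells (SD, n = 3 each), while *KRT20*, *CLDN18*, *TFF1*, *MUC5AC* and *PGC* had means under 0.1 RPKM. Of 10 fibroblast markers 6 were called higher and 0 lower, a share of 60.0% (7 and 1 by voom). Their summed level, led by *COL3A1* and *COL1A1*, was 200 to 202 RPKM against 132 to 149. Of 6 tested leukocyte markers 1 was called higher, *LYZ*, which is also on the gastric epithelial list, and 1 lower, *NKG7*, a share of 33.3%. *PTPRC* was at 0.005 to 0.016 RPKM. *PECAM1* was at 0 in every library, and the 8 endothelial markers summed to at most 0.302 RPKM. The part of the epithelial and fibroblast markers in the levels of *DKK1*, *AXIN2* and *WNT5A* was not tested.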

How the data were processed

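RNA-seq of 6 libraries was analysed, 3 labelled as overexpressing the *FN1* 3′-UTR and 3 labelled as controls, with groups and replicate numbers from the sample labels. Libraries were strand-specific, and the authors deposited 1 table of RPKM per library. Per the submitters' processing notes, the tools were Trimmomatic 0.36, STAR 2.5.3a and featureCounts of Subread 1.5.1, with GRCh38, and the annotation release and the strand setting of the counting are not given in the sources used here. The tables also list other columns as deposited, among them gene coordinates and length. RPKM times length gave a whole number of reads, within 0.02 of a read, for 100% of values above 0, and these recovered reads gave the depth and entered limma's voom as an alternative.

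The 10 genes and all lists were chosen with earlier results of these data known. Values were transformed to log2(RPKM + 0.1), and genes with at least 0.1 RPKM in 3 or more libraries were fitted with limma 3.58.1 in R 4.3.3 with group alone as the model term and trended empirical Bayes variances. P-values were adjusted by Benjamini-Hochberg over the 23299 tested genes. The fit was tested on simulated data. Named genes are the 10, *FN1*, the called genes of each Wnt list with a mean of at least 0.5 RPKM in either group (at most 4 per list), the paralogs *TCF7L1*, *NKD2*, *WNT5B*, *DKK3* and *AXIN1*, and at most 4 examples of each marker list. Of the 10 genes, 9 had the same start and end in GENCODE release 29. Alternatives were the pseudocount, the filter, the scaling, voom, no trend, the replicate number as a block, the study's criteria, shares of reads and each library left out in turn. Tables were made with Python 3.11.15, pandas 2.3.3, numpy 2.4.6 and scipy 1.17.1, and figures with matplotlib 3.10.9.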

Additional observations from a re-analysis of the deposited data

How the results depend on the processing

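Among the 10 genes, *DKK1*, *AXIN2* and *WNT5A* were called in all 14 alternative fits. By limma's voom on the recovered reads, 5 of the 10 were called higher and 2 lower, beside 21.9% of all tested genes called in either direction. *TCF7* and *ZNRF3*, which were not called, changed sign in 1 fit each, without control replicate 2 (-0.0023) and without control replicate 1 (-0.059), and ranged up to 0.077 and 0.11 in the other fits without 1 library. The *FN1* log2 fold change of 0.52 lost its call without a filter on low values (adjusted p = 0.0708 from limma) and when a library was left out (0.46 to 0.55). Over all genes, voom called 2042 higher and 3066 lower, the study's criteria 385 and 190, and the fits without 1 library 501 to 927 and 470 to 1015. Over the 9 Wnt lists, *LGR5* and *FRZB* included, voom called 23 and 19, the study's criteria 4 and 0, and the fits without 1 library 7 to 11 and 2 to 5. Libraries of equal replicate number in the 2 groups deviated from their group means with correlations of 0.0024, 0.021 and 0.010 across 23299 genes. Low correlations cannot show that such libraries had nothing else in common. In both groups the depth rose from replicate 1 to replicate 3. A fit with a replicate block called 564 genes higher and 598 lower in all and 7 and 4 over the Wnt lists, and in it *FN1* at 0.52 was not called (adjusted p = 0.0852 from limma). As shares of recovered reads, which are not divided by length, *LEF1* made up 31.4% of the TCF/LEF genes in HGC27-FN1 3′-UTR cells and 34.1% in control cells, and *WNT5A* made up 42.9% and 31.4% of the ligands. A minimum mean of 0.5 RPKM left out *RNF43*. Of the changes named here the cause was not tested, except that fits without 1 library hold fewer samples. The 46 to 121 reads of *RNF43* limit the precision of its value, as do the 3 control reads of *LGR5*.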
